A study of Homo sapiens with 2 samples.

Results

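The regions described here are the first exon regions of protein-coding genes. An exon region is a stretch of an annotated exon bounded by the exon ends and splice sites of the gene's transcripts, so that exon 1 of a gene can hold several regions, lettered a, b, c and so on from its 5′ end. A region was taken when it lay in exon 1, when its coverage reached 2000 sequenced bases over both libraries, and when its gene had at least 200 reads in all and 10 in each library. These terms gave 11979 regions in 9702 genes, of 277804 exon regions in all, and 11559 regions in 9347 genes could be compared with the rest of their gene. Of the other 420, 374 lay in genes with no other exon and 46 in genes with no read in the rest in at least 1 library. The rule used no measured difference between the libraries, but the members were chosen with earlier results of these data known.

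The study sequenced polyadenylated RNA of 2 human colorectal cancer cell lines, with 1 library each. MIP101, taken from a liver metastasis, is killed by 5-fluorouracil (5-FU), a uracil analog that inhibits thymidylate synthase and enters RNA. MIP/5FU is 1 clone of MIP101 that was made resistant by growing it in increasing 5-FU; its IC50 is 10-fold higher, and its medium held 5 µM of the drug. Both lines were grown for about 48 hours without the drug before RNA was taken, so no group under acute drug was measured. With 1 library a line, a difference is between these libraries: resistance, the choice of 1 clone and library preparation cannot be told apart, and neither can fewer cells with an RNA and less of it per cell. No p-value was computed.

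A transcript begins at its promoter, and exon 1 is the part of the mRNA copied first. Many genes have more than 1 promoter, each joined to its own first exon, and the alternative first exons are spliced to the same downstream exons. A switch between promoters therefore changes the amount of one first exon relative to the body of the gene, and it can change the 5′ untranslated sequence, the N terminus of the protein, or neither. LAMA3, which encodes the laminin alpha-3 chain of epithelial basement membranes, is a known case: an upstream promoter gives a long chain and an internal promoter a short one.

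The first set of sequences shows the splice junctions on which several differences turn, as 30 bases of mRNA with the last 15 bases of the upstream exon in capitals and the first 15 of the downstream exon in lower case. They were read from GENCODE 29 transcripts (GRCh38) at introns that share both the gene and the exact intron length with the deposited junction. The flanking exon bases in hg18 were 28705183 and 28707227 on chromosome 1 for RCC1, 50086411 and 50086504 on chromosome 19 for TOMM40, and 102829573 and 102826844 on chromosome X for MORF4L2. For LAMA3 they were 19705623 and 19710256 on chromosome 18 from exon 39, and 19707177 and 19710256 from exon 40. Both LAMA3 junctions enter exon 41, so their lower-case parts are identical and only the capitals tell the long form from the short form.
RCC1 exon 1 to exon 2: CGCTTCTTCTCCTTGgatttgttaaggatt
TOMM40 exon 1 to exon 2: CAGGCGCCGCCGCCAcaggcgaccatgggg
LAMA3 exon 39 to exon 41: GGTGACTCTTGTCAGggttgtagccctgga
LAMA3 exon 40 to exon 41: TTTAGACCCAGCCAGggttgtagccctgga
MORF4L2 exon 1 to exon 3: GATCAGGACGCAAAGgtcaccatcagaaaa

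The second set shows the 100 bases just before the start of transcription for genes of both directions. As groups, genes of both directions differed in median base composition, as described below, but single genes need not. The printed bases are from RefSeq promoters on GRCh38.p14, along the gene's strand. Capitals mark matches, on either strand, to GGGCGG (the core of an Sp1 site), to the CCAAT box, to the TATA box motif TATAAA, or to the E-box CACGTG. RCN2 lies at chr15:76931649-76931748 on the plus strand, VIPR1 at chr3:42502543-42502642 on the plus strand and TOMM40 at chr19:44891154-44891253 on the plus strand. ANKRD11 lies at chr16:89490562-89490661 on the minus strand. These 4 genes had a first exon region that was relatively higher in MIP/5FU.
RCN2 exon 1 start: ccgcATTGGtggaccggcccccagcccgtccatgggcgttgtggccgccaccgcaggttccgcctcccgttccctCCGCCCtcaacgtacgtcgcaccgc
VIPR1 exon 1 start: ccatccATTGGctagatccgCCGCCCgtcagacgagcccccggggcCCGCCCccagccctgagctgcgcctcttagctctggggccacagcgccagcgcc
TOMM40 exon 1 start: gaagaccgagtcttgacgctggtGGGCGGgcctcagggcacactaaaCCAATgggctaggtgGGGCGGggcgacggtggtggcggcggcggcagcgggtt
ANKRD11 exon 1 start: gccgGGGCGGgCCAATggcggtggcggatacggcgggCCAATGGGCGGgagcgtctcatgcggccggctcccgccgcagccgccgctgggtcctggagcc

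In the next 4 genes a first exon region was relatively lower in MIP/5FU. METTL11A (NTMT1 in RefSeq) is shown at 2 starts on the plus strand, at chr9:129608772-129608871 for exon 1 and at chr9:129626344-129626443 for exon 3. CDC25B lies at chr20:3795689-3795788 on the plus strand, PRKAG2 at chr7:151877116-151877215 on the minus strand, and STARD13 at chr13:33285756-33285855 on the minus strand. Their 300-base exon 1 promoters had a GC content of 65.7% (METTL11A), 66% (CDC25B), 71.3% (PRKAG2) and 53.3% (STARD13). The median of the 13 lower genes with a promoter was 59%. PRKAG2 is the 1 gene of those 13 whose promoter held GGGCGG.
METTL11A exon 1 start: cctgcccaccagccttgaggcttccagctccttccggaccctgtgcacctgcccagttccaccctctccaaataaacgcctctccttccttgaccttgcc
METTL11A exon 3 start: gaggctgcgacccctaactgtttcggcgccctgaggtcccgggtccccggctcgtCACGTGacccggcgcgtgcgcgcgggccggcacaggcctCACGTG
CDC25B exon 1 start: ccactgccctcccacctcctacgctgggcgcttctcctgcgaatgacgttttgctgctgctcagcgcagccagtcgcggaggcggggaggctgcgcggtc
PRKAG2 exon 1 start: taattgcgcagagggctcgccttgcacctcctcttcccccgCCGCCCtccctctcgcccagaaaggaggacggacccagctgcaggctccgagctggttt
STARD13 exon 1 start: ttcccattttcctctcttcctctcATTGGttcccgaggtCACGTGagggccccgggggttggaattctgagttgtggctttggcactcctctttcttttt

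First exon regions were short and thinly covered. Their median length was 167 bases (quartiles 88 and 296), 1363 were under 50 bases, and 40.5% held no coding base. The files give coverage for a region, which was divided by the mean bases per read of the library to give read equivalents. The median region had 244 read equivalents in MIP101 and 137 in MIP/5FU, from libraries of 200141071 and 109693681 gene reads. Per base, the median first exon region stood at 0.538 of the rest of its gene in MIP101 and at 0.556 in MIP/5FU, or -0.89 and -0.85 on the log2 scale. Exon regions outside exon 1 stood at 0.27 and 0.24 on the same scale. Below 0.5 of the rest lay 46.3% of first exon regions in MIP101 and 44.0% in MIP/5FU. The low relative coverage was therefore present in both lines.

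The libraries carried the RNA of an epithelial line. Of 10 epithelial markers, 8 had at least 10 RPM (reads of a gene scaled to all gene reads of the library) in both libraries, with KRT8 at 3309 and 3844. The highest of 6 blood markers had 1.22 in MIP101 and 1.71 in MIP/5FU, and the highest of 5 hepatocyte markers, SERPINA1, had 6.72 and 3.90. Of 6 endothelial and fibroblast markers, 1 reached 10 RPM, PDGFRB with 12.3 and 16.3. COL3A1 had 8.29 and 0.346 RPM, and the other 4 genes of that list were below 1 RPM in both libraries. Among blood markers PTPRC had 12 and 10 reads and HBB 0 and 0. Among hepatocyte markers ALB had 68 and 68 reads, CYP3A4 80 and 56, and APOA1 and TTR 0 and 0. CDH5 of endothelium also had 0 reads in both, and PECAM1 had 10 and 0. The summed level of the lists was 1.59 and 2.43 RPM for blood, 7.46 and 5.03 for hepatocytes, and 21.1 and 17.0 for endothelium and fibroblasts. Their part in the results was not tested.

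To compare the lines, an index was formed for each region: the log2 of its share relative to the gene's exons outside exon 1 in MIP/5FU, over the same share in MIP101. A gene that merely rises or falls as a whole has an index of 0. A region was called when the index was at least 1 in size, a 2-fold relative change, and when a counting interval with an error rate of 0.1% left out 0; index intervals below are of that kind. Of the 11559 tested regions, 84 in 80 genes were relatively higher in MIP/5FU, which is 0.727% of those tested, and 28 in 28 genes were relatively lower, which is 0.242%. No gene had both. Over the 126380 regions outside exon 1, tested the same way, the shares were 0.188% and 0.139%, and over all 137939 regions they were 0.233% and 0.148%. First exon regions were thus called more often than the rest in both directions, and 75% of their calls were higher, against 57.4% of the calls outside exon 1. The 2 sets of regions were not matched for depth, and the difference in share was described and not tested.

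Most first exons kept pace with their gene. The index lay within 1.5-fold in 93.3% of first exon regions, against 97.0% of the other regions. Its median was 0.05, against -0.02 outside exon 1, and 59.5% of first exon regions lay above 0, against 43.9%. The UMPS region showed this for a gene whose reads were fewer in the resistant line: UMPS makes uridine monophosphate and activates 5-FU. Its ER1a had 423 and 120 read equivalents in MIP101 and MIP/5FU, its later exons 15294 and 4350, and the index was -0.0037 (interval -0.52 to 0.49). TYMS encodes thymidylate synthase, the target of 5-FU, and its ER1a had 5725 and 6035 beside 81751 and 69582, an index of 0.31 (0.22 to 0.40) that lay above 0 but below the 2-fold size. This region overlaps an exon of another gene, and the library does not keep strand. The most covered regions also moved little: ER1a of H19, an imprinted RNA that the gene table lists as protein-coding, fell with its gene from 138018 to 794 with an index of -0.15, and ER1d and ER1b of FTH1, the ferritin heavy chain, had indices of 0.15 and 0.33.

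Regions that were weak relative to their gene made up most of the higher calls. The 84 higher regions had a median level of 0.138 of the rest of the gene in MIP101 and 0.325 in MIP/5FU. Above the per-base level of the rest lay 9 of the 84 in MIP101 and 19 in MIP/5FU. Where the level over both libraries was below -3 on the log2 scale, 3.07% of 749 regions were higher and 0.534% lower, and between -3 and -2 2.15% of 1256 were higher. Between -1 and 0, 0.206% of 3879 were higher. The shares rose again at 0 and over, where 0.577% of 2426 were higher and 0.412% lower. Of the 84, 36 had under 50 read equivalents in MIP101, so their precision is low. Only 1 of the 28 lower regions did, but lower regions had their fewest reads in MIP/5FU. There ZNF254 had 6, PRKAG2 9 and METTL11A 13, so the MIP101 counts do not make the lower calls more precise. The 28 lower regions went from a median of 0.525 to 0.202. In 59 of the higher regions the region itself differed at least 2-fold per gene read, in 13 the rest of the gene did, and in 17 the rest changed more than the region. An exon of another gene was overlapped by 5 higher regions (5.95%) and 0 lower ones, beside 440 (3.81%) of all tested regions. With 28 lower regions, a count of 0 is near that share.

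Regions were called more often in genes whose annotated transcripts start in more exons. Where all annotated transcripts started in exon 1, 0.611% of 8840 regions were higher and 0.215% lower. With starts in 2 exons the shares were 0.972% and 0.292% of 2057, and with 3 or more start exons 1.51% and 0.453% of 662. Even so, 54 of the 84 higher and 19 of the 28 lower regions lay in genes with no annotated start outside exon 1. Regions without a coding base were higher in 1.07% and lower in 0.192%, and regions with coding bases in 0.494% and 0.276%.

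**Figure D1:**
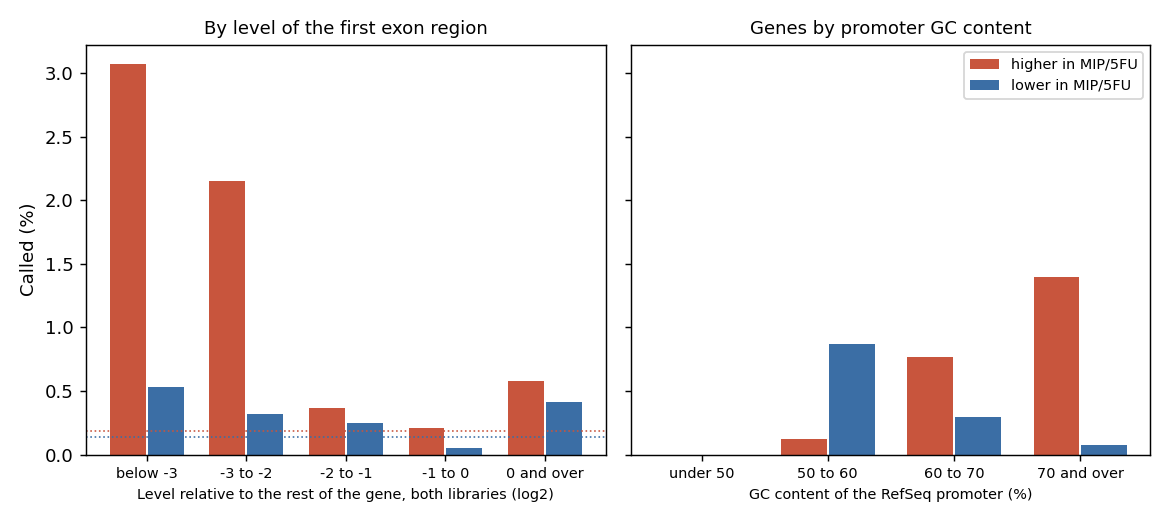
Bars give the percentage of first exon regions (left) and of genes with a matched RefSeq promoter (right) that were relatively higher (red) or lower (blue) in MIP/5FU. The left axis groups regions by coverage per base relative to the rest of the gene (log2, both libraries), with dotted lines at the shares outside exon 1 (0.188% and 0.139%); the right groups genes by the GC content of the promoter, and higher calls climb to 1.40% at 70% GC and over.

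The base composition of the promoter moved with the calls. A RefSeq promoter was found by symbol for 7323 tested genes, and for 3920 of them a promoter could be tied to a transcript that starts in exon 1. In 32 genes with a higher region the 300-base promoter had a median GC content of 71.2% and 34 CpG pairs, in 13 genes with a lower region 59% and 16, and in the 3875 uncalled genes 66% and 27. GGGCGG, on either strand, was in 75% of the promoters of the higher genes and in 1 of 13 of the lower genes (7.69%), beside 75.6% of the uncalled genes and 45.0% of all 35116 promoters in the table. The motif is a description of these letters and says nothing of binding. CCAAT was in 34.4%, 46.2% and 39.8% of the 3 groups (34.6% of the table), TATAAA in 6.25%, 0% and 4.34% (11.5%), and CACGTG in 9.38%, 7.69% and 11.2% (7.26%).

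Grouped by GC content, 1.40% of the 1290 genes at 70% GC and over had a higher region and 0.0775% a lower one. Between 50% and 60% GC the order was opposite, with 0.125% higher and 0.874% lower of 801. The median index went from 0.01 under 50% GC to 0.10 at 70% and over, and the median level in MIP101 went from -0.32 to -1.33 on the log2 scale. GC content, low relative coverage and the higher calls thus moved together over genes. Their part in the calls was not tested.

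In genes with a minimum of 500 reads per library, PHLDB2 had the highest index. It encodes a cortical protein that helps anchor microtubules near adhesions. Its ER1a (chr3:112876213-112876783, hg18) had 60 read equivalents in MIP101 and 38 in MIP/5FU, while the rest of the gene had 11413 and 744. The index was 3.28 (2.22 to 4.30), because the body of the gene fell and exon 1 did not. GALNT1, which starts mucin-type O-glycosylation, was the opposite kind: its ER1a (chr18:31415001-31415217) went from 23 to 72 while the rest had 41662 and 19665, 1.16-fold lower per gene read, giving 2.73 (1.62 to 4.00). Even in MIP/5FU, this exon reached only 6.36% of the per-base level of the rest of GALNT1.

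Short 5′ pieces of exon 1 came next. ER1b of RCN2, a calcium-binding protein of the endoplasmic reticulum, is 20 bases long and had 16 and 51 read equivalents beside 22894 and 14741 (index 2.31; 0.98 to 3.87). ER1a of TMEM203 is 30 bases long and had 17 and 61 beside 1353 and 1020 (2.25; 0.97 to 3.76). ER1b of PDLIM2, a PDZ and LIM domain protein of the actin cytoskeleton, had 10 and 45 beside 1357 and 1602 (1.93; 0.34 to 3.95). These pieces rose in read equivalents even though the MIP/5FU library was the smaller one, but each rests on few reads in MIP101.

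In other higher genes the first exon was an untranslated or N-terminal exon of an enzyme, receptor or scaffold. ARSB, a lysosomal sulfatase, had 21 and 43 in ER1a beside 4256 and 2368 (1.88; 0.61 to 3.28). VIPR1, the receptor of vasoactive intestinal peptide, had 33 and 52 beside 6435 and 2958 (1.78; 0.70 to 2.91). LLGL2, a cell polarity protein, had 33 and 78 in its 30-base ER1b beside 37309 and 25972 (1.76; 0.78 to 2.84). All 3 stayed below the per-base level of the rest of the gene in both lines.

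MTA3, a subunit of the NuRD chromatin complex, had 46 and 74 in ER1a beside 8278 and 3983 (1.74; 0.84 to 2.69). DCI, a mitochondrial isomerase of fatty acid oxidation, had 38 and 132 in ER1a beside 6581 and 6936 (1.72; 0.86 to 2.68). The gene as a whole was also higher in MIP/5FU, at 33.3 and 64.9 RPM, but its exon 1 rose more. FMN1, a formin that nucleates actin filaments, had the best supported value of the 12 after RCC1: its 1374-base, fully coding ER1a had 561 and 537 beside 3921 and 1091 (1.78; 1.45 to 2.12).

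Of the 12 lowest regions, CDC25B, MEGF9 and CPEB4 are given first. ER1a of CDC25B, a phosphatase that activates cyclin-dependent kinases at mitotic entry, is an untranslated stretch of 705 bases (chr20:3724401-3725105). It had 456 read equivalents in MIP101 and 60 in MIP/5FU, beside 35374 and 16350, and the index was -1.81 (-2.52 to -1.18). MEGF9, a membrane protein with EGF-like repeats, had 540 and 130 in its coding ER1a beside 3647 and 2853 (-1.70; -2.20 to -1.23). CPEB4, which binds cytoplasmic polyadenylation elements, had 357 and 98 beside 2780 and 1711 (-1.16; -1.75 to -0.61).

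METTL11A, which methylates the N terminus of proteins including RCC1, had 121 and 13 read equivalents in ER1a beside 6094 and 3209 (-2.29; -3.96 to -1.002). Its transcripts start in 3 exons, and exon 1 reached only 9.65% and 1.99% of the per-base level of the rest. Exon 2 had 674 and 425 and exons 4 to 6 had 5410 and 2783, so the low value was limited to exon 1 among those exons. STARD13, which has a lipid-binding START domain, had 98 and 36 in ER1a beside 1349 and 1207 (-1.28; -2.31 to -0.35), in a gene with 3 start exons.

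PRKAG2, the gamma-2 subunit of AMP-activated protein kinase, had 46 and 9 beside 2111 and 1335 (-1.69; -3.83 to -0.06). MORF4L2, of histone acetyltransferase complexes, had 177 and 39 in ER1a beside 49926 and 28419 (-1.37; -2.29 to -0.55), and the junction from its exon 1 to exon 3 had 32 and 9 reads. The remaining genes of the 12 lowest were AC010326.7 (352 and 21 beside 1682 and 503; -2.33), ZNF254 (74 and 6; -1.86), HHLA3 ER1e (53 and 8; -1.73) and C7orf50 ER1c (97 and 22; -1.21). ZNF254 is a zinc finger gene with close relatives, between which short reads can be split, so its value is uncertain. The upper limits of PRKAG2, ZNF254 and HHLA3 lay within 0.06 of 0.

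**Figure D2:**
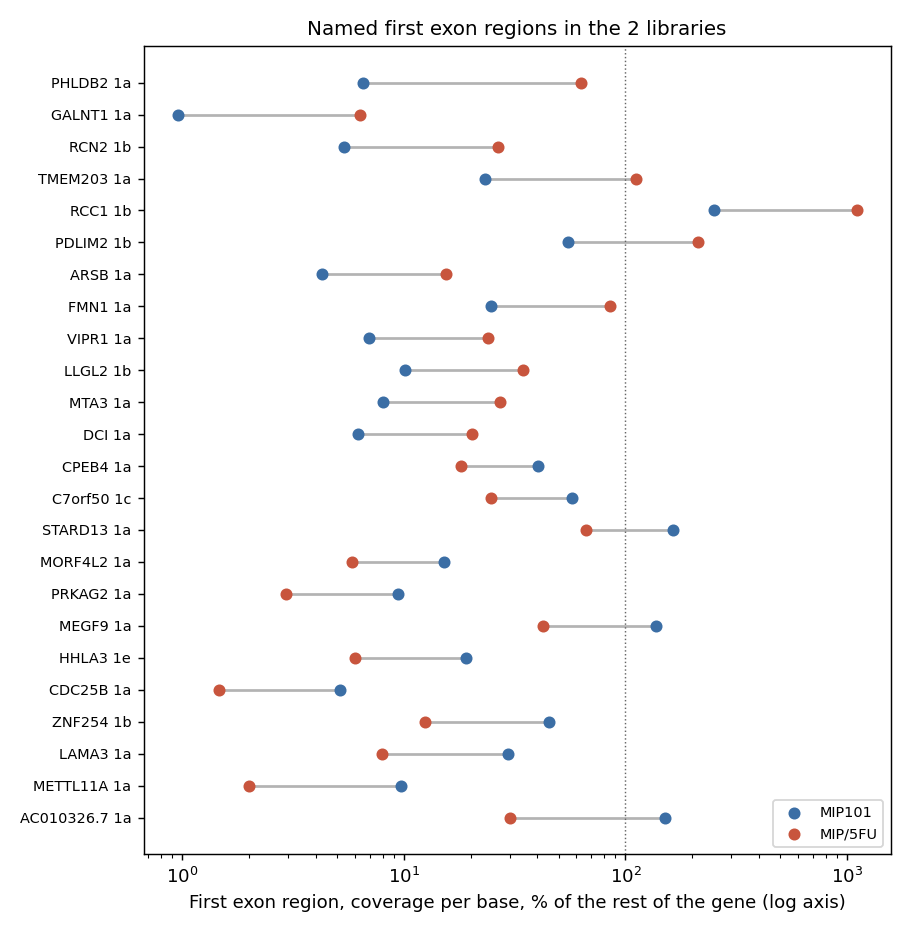
Each row is a first exon region among the 12 highest and 12 lowest indices; points give its coverage per base as a percentage of the rest of the gene in MIP101 (blue) and MIP/5FU (red), on a log axis, with 1 library each and a dotted line at 100%. GALNT1 moved from 0.952% to 6.36% and CDC25B from 5.13% to 1.46%, both far below the body of the gene, while RCC1 ER1b stood above it in both lines.

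Some indices beyond these came from genes with fewer reads and were picked out after their values were seen. ER1a of GHDC had 134 and 94 read equivalents beside 787 and 19, an index of 4.86 (3.65 to 6.30), as the later exons nearly all fell away in MIP/5FU and exon 1 did not. PDZK1, a scaffold of membrane transporters, had 35 and 22 beside 403 and 24 (3.40). In the other direction, ER1a of FUT6, a fucosyltransferase, had 92 and 0 beside 528 and 242, and taking 3 reads for the 0 it was at least 14.1-fold lower. FUT6 has near-identical relatives, so reads could be split between them. C12orf59 had 1119 and 0 in ER1a beside 7405 and 89, at least 4.48-fold lower relative to a gene that itself had nearly gone. ER1a of NOS3 had 110 and 50 beside 19 and 66 (-2.93). Here mainly the rest moved: per gene read it differed by 2.66 on the log2 scale and the region by -0.27. The region stood at 10010% of the per-base level of the rest in MIP101 and at 1279% in MIP/5FU. The span of NOS3 overlaps another gene, and whether reads of that gene entered was not tested.

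Along LAMA3, the difference broke at the internal promoter. ER1a (chr18:19523560-19523939) had 109 and 22 read equivalents, an index of -1.91 (-3.17 to -0.84). Exons 1 to 39 together had 3190 in MIP101 and 573 in MIP/5FU, which is 3.05-fold lower per gene read (95% counting interval 2.79 to 3.34), and all 39 exons lay below 0. Exon 40, where the short form starts, had 39 and 72, which is 3.37-fold higher (2.25 to 5.11). Exons 41 to 77, common to both forms, had 7063 and 7087, 1.83-fold higher (1.77 to 1.89), and all 37 lay above 0.

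The LAMA3 junctions printed above gave the same order. The junction from exon 39 to 41 had 12 reads in MIP101 against 4 in MIP/5FU, and that from exon 40 to 41 had 16 and 31. The junction from exon 1 to exon 2 had 13 and 2. The gene as a whole went from 51.3 to 70.3 RPM, so its total was higher while its long form was lower. Set directly against exon 40, exon 1 had an index of -3.19 (-4.81 to -1.77).

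PHLDB2 broke between exons 3 and 5 in the other direction. Exons 1 to 3 had 222 and 113 read equivalents, 1.08-fold lower with an interval that reached from 1.36-fold lower to 1.17-fold higher. Exons 7 to 24 had 11201 and 678, which is 9.05-fold lower (8.38 to 9.80), in all 17 exons with a read. Exon 6, an annotated start, had 53 and 5, and its junction to exon 7 had 44 and 5 reads. The junction from exon 1 to exon 2 had 4 and 2. Transcripts of PHLDB2 start in 5 annotated exons. The exons from number 6 onward fell together, and the first 3 exons, at 6.52% of the rest for ER1a in MIP101, were a minor part of the gene there.

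RCC1, the chromatin-bound exchange factor of the Ran GTPase, had the largest numbers. Its ER1b (chr1:28705156-28705183) had 1449 and 3764 read equivalents beside 59585 and 35072, an index of 2.14 (1.99 to 2.29), and exons 1 to 3 had 3043 and 6986, 4.19-fold higher (4.01 to 4.37). Exon 4 was 1.43-fold higher (1.30 to 1.57), and exons 6 to 15, with 56033 and 30675, were within 1.02-fold. The junction of exons 1 and 2 had 2012 and 5292 reads, while that of exons 5 and 6, where the other start lies, had 754 and 387. From exon 2 to exon 3 only 339 and 487 reads went on. The 30 bases at the exon 1 to exon 2 junction also occur in GENCODE 29 transcripts of SNHG3, a host gene of small nucleolar RNAs, so these reads can come from RNA other than RCC1 mRNA, and the split between them was not tested.

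Other genes took other shapes. In FMN1, exon 1 was higher per gene read (0.80) and each of the 16 later exons was lower. In DCI, the value fell step by step, from 2.66 at exon 1 to 1.53 at exon 2 and 1.09 at exon 3, and stood between 0.86 and 0.96 from exon 4. AC010326.7 had the opposite slope, from -3.20 at exon 1 to 0.12 at exon 7. Such slopes have no break at an annotated start, and AC010326.7 has 1 annotated transcript.

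How far a difference reached was counted over the called genes. Of the genes with a higher region, 61 had an exon 2 with at least 50 read equivalents, and when exon 2 was compared with the exons after it, 46 lay on the same side of 0. Only 4 passed the call at exon 2: PHLDB2 (2.98), STK32C (2.87), RCC1 (2.01) and ANKRD11 (1.03). Of 18 genes with a lower region, 14 lay on the same side and 3 passed: AC010326.7 (-1.97), LAMA3 (-1.86) and LRRC61 (-1.45). The same shares over exon 2 of all tested genes were not taken, so these counts have no background beside them.

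**Figure D3:**
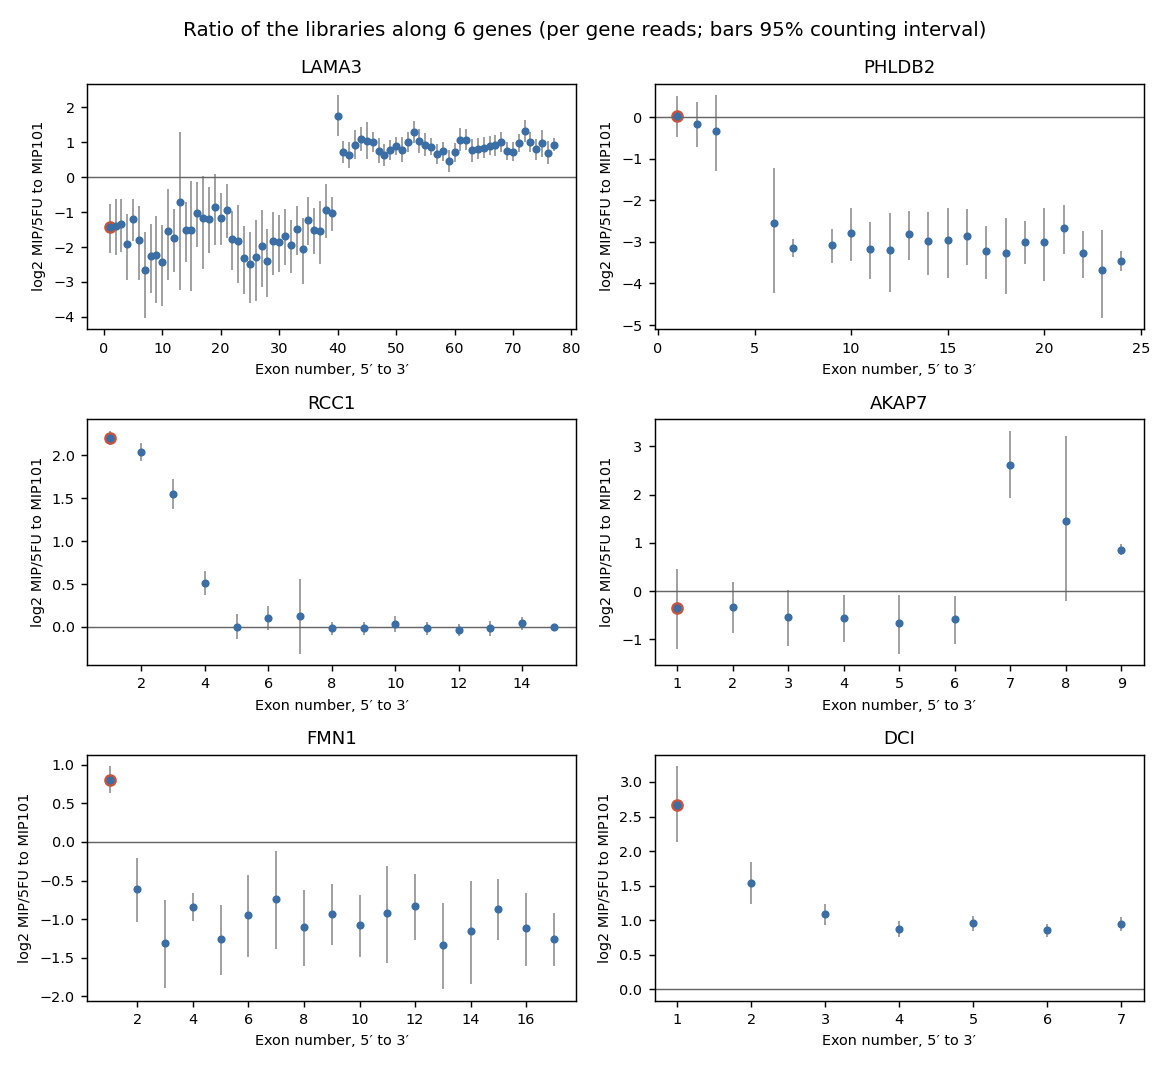
Each panel plots, for 1 gene, the log2 ratio of MIP/5FU to MIP101 per gene read against exon number, with 95% counting intervals, and exon 1 in red; exons without a read in 1 library are left out. LAMA3 changes sign at exon 40 and AKAP7 at exon 7, PHLDB2 drops by exon 6, RCC1 returns to 0 by exon 5, and FMN1 and DCI differ at exon 1 or slope down from it.

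Reads across splice junctions are a separate count in the files. For 6871 genes, the reads that leave exon 1 could be compared with the other junction reads of the gene. Of these sets, 12 were relatively higher in MIP/5FU (0.175%) and 7 relatively lower (0.102%), beside 0.0404% and 0.0576% of the 81656 sets that leave other exons. At least 1 coverage region in exon 1, not always every one, was required to lie on the same side of 0, and this held in all 12 and all 7. That condition asks only for the sign, and its share over all sets was not taken. Of all first exon regions, 59.5% lay above 0. A called region in the same direction was present in 5 of the 12 and 0 of the 7. Of the 80 genes with a higher region 49 had a tested junction set, which lay on the same side in 36. Of the 28 genes with a lower region 9 did, with 6 on the same side. Over all 6871 sets the median junction index was 0.03, and the share above 0 was not taken as a background.

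In 5 genes, both the region and the junctions passed, all higher: RCC1, TOMM40, FMN1, ANKRD11 and ZNF511. In no gene did both pass as lower. For RCC1 the junction index was 2.16 (2.004 to 2.32), from 2031 and 5316 reads leaving exon 1 and 6961 and 4079 elsewhere. For TOMM40, the pore of the mitochondrial import machinery, it was 2.06 (1.35 to 2.81), from 65 and 147 beside 6448 and 3504, and the 39-base ER1b had an index of 1.12 (0.71 to 1.53). FMN1 had 16 and 16 beside 812 and 197 (2.04; 0.19 to 3.90).

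ANKRD11, an ankyrin repeat regulator of chromatin, had 67 and 51 junction reads beside 2027 and 720 (1.10; 0.15 to 2.02), and its untranslated ER1b had 225 and 217 read equivalents (1.42; 0.96 to 1.88). ZNF511 had 83 and 73 beside 3758 and 1504 (1.14; 0.33 to 1.93), but its 23-base region overlaps an exon of another gene. Junctions and coverage did not always run alike. MEGF9 had 10 and 13 junction reads leaving exon 1, an index of 0.92 (-1.33 to 3.31) on the other side from its region, and CDC25B had 205 and 105 (0.16; -0.44 to 0.75), so that the low stretch was the 5′ part of its exon 1 and not the end that is spliced. Over 5518 genes with both, ER1a and junction indices had a Pearson coefficient of 0.27 and a Spearman coefficient of 0.24 across genes, which share their libraries and depth and are not replicates.

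The 7 genes with relatively fewer exon 1 junctions were B4GALT3, RGL2, C4orf27, FAM21C, VPS29, HNRNPA3 and SPTLC1. SPTLC1, a subunit of serine palmitoyltransferase, had the most reads, 470 and 124 beside 5355 and 2888 (-1.03; -1.55 to -0.55). B4GALT3, a galactosyltransferase, had 29 and 0 beside 1116 and 472. VPS29 of the retromer had 144 and 32 beside 1538 and 736 (-1.11; -2.15 to -0.18). None of the 7 had a called region.

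**Figure D4:**
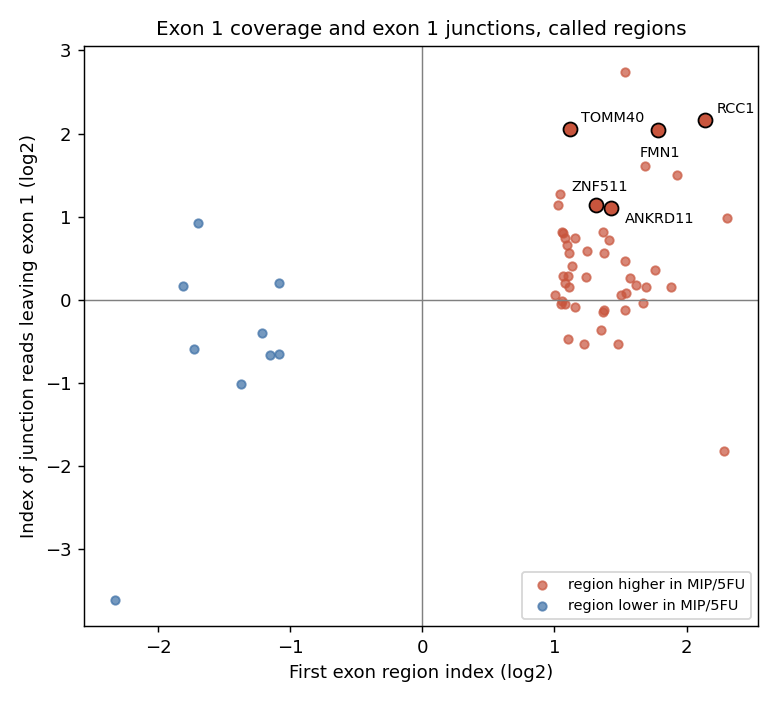
Each point is a gene with a called first exon region and at least 20 reads leaving exon 1; the x axis gives the index of the region and the y axis that of the junctions (both log2), red for regions higher in MIP/5FU and blue for lower. Outlined and named points are the 5 genes in which both passed; most red points lie above 0 on the y axis (36 of 49) but below 1.

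An acceptor site can receive exon 1 or another exon, and the share from exon 1 was taken at the acceptor it joins most. In 6733 of 7261 genes that share was at least 90%, in 391 between 10% and 90%, and in 137 under 10%. With at least 20 reads in each library (5098 genes), 7 shares differed by 20 points or more with 95% Clopper-Pearson intervals apart. In GLB1, the lysosomal beta-galactosidase, exon 1 supplied 23.5% of 68 reads in MIP101 and 66.7% of 24 in MIP/5FU. The other 6 were lower in MIP/5FU.

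For AKT1, a kinase of the insulin and growth factor pathway, 35.1% of 77 reads and 7.14% of 56 entered exon 3 from exon 1. For TBL1X, of the NCoR corepressor, the values were 37.0% of 27 and 0 of 20, the latter with an upper limit of 16.8%. MAK10 went from 43.5% to 13.2%, ISCU, the iron-sulfur cluster scaffold, from 63.6% to 34.1%, SAR1A, a GTPase of COPII vesicles, from 83.8% to 55.8%, and MAP3K7IP2 from 97.0% to 74.1%. None of the 7 had a called coverage region: that of AKT1 had an index of -0.09 and that of GLB1 0.32. At these acceptors, the partner of the junction differed while the coverage of exon 1 relative to the gene did not differ beyond its interval. Each acceptor lay in exon 3, 4 or 5, and the other reads can come from any exon before it. Whether a first exon or the skipping of a later exon differed was not tested.

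Where the gene has a second start exon that belongs only to transcripts starting there, exon 1 was set against that exon. This comparison was added after the files were seen. Of 823 such pairs in 746 genes, 12 had exon 1 relatively higher in MIP/5FU (1.46%) and 11 relatively lower (1.34%). SLC41A3, of a magnesium transporter family, had the largest value: exon 1 had 45 and 25 read equivalents and exon 3 had 90 and 3 (4.06; 1.42 to 8.58). Its index against the rest of the gene was 0.36, so the alternative start was what differed.

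AKAP7, an anchoring protein of protein kinase A, had 44 and 19 in exon 1 and 80 in MIP/5FU against 24 in MIP101 in exon 7 (-2.95; -4.86 to -1.26). Exons 1 to 6 of AKAP7 all lay below 0 per gene read and exons 7 to 9 above, at 2.60, 1.45 and 0.86. The junction from exon 6 to 9 had 3 and 1 reads and that from exon 7 to 9 had 3 and 13. After LAMA3 and AKAP7, lower pairs included MORF4L2 (-2.09), FAM118A, HERC4, CORT, PELO, C20orf111, LAMB1 and AES. LAMB1, the laminin beta-1 chain, had 272 and 162 in exon 1 and 49 and 63 in exon 2 (-1.11; -2.18 to -0.07).

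Higher pairs after SLC41A3 were in PHLDB2, GALNT1, MATR3, MSI2, GSTO2, CGB7, AHCYL1, RERE, SCNN1A, CUL1 and AC009027.10. MATR3, a nuclear matrix protein, had 511 and 383 in exon 1 and 96 and 25 in exon 5 (1.53; 0.44 to 2.76). SCNN1A, the alpha subunit of the epithelial sodium channel, had 120 and 83 in exon 1 and 3272 and 1027 in exon 2 (1.14; 0.42 to 1.85). MSI2, an RNA-binding protein, had 507 and 520 in exon 1 and 62 and 23 in exon 2 (1.47; 0.29 to 2.79). CGB7 has near-identical relatives, so its value is uncertain.

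Inside exon 1, neighbouring regions can separate nearby starts, exon ends or splice sites. Each pair took a region and the next one that met the rule, which need not adjoin it, as in YPEL3. Of 2277 such pairs in 1512 genes, 16 differed between the libraries (0.703%), 12 with the outer region relatively higher in MIP/5FU (0.527%) and 4 lower (0.176%), beside 62 of 9888 pairs inside other exons (0.627%). Only the sums were close: inside other exons 0.212% were higher and 0.415% lower, the opposite balance. That difference in balance was not tested. In CDC25B, ER1a had 456 and 60 and the adjoining ER1b 1490 and 716 (-1.87; -2.61 to -1.20). In HIST2H2BE, a histone H2B gene of a family with close copies, ER1b had 766 and 672 and the following ER1c 455 and 1196 (-1.58; -1.95 to -1.22). YPEL3 had 32 and 57 in ER1c and 68 and 33 in ER1g (1.88; 0.42 to 3.45).

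PRMT2, an arginine methyltransferase, had 484 and 181 in ER1e and 133 and 140 in ER1f (-1.49; -2.22 to -0.78). RCN2 had 16 and 51 in ER1b and 666 and 718 in ER1c (1.56; 0.21 to 3.15), and SH3GLB2 had 41 and 86 in ER1b and 257 and 212 in ER1c (1.35; 0.34 to 2.41). In RCN2, SH3GLB2 and LLGL2, the outer 5′ piece rose relative to the piece that follows it.

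Of 92 tested regions in 70 genes known for alternative promoters or first exons, 3 were higher (3.26%) and 1 lower (1.09%), beside 0.727% and 0.242% of all first exon regions, with a median index of 0.09 against 0.05. The called members were PHLDB2 (ER1a and ER1b), GALNT1 and LAMA3, which were placed in this list with earlier results of these data known, so the count is not independent. BCL2L1, an apoptosis inhibitor, had 987 and 584 in ER1b (-0.01; -0.27 to 0.24). LEF1, a WNT effector with alternative promoters, had 2774 and 2412 beside 15457 and 11730 (0.20; 0.05 to 0.34). The first exons of BCL2L1 and LEF1 thus followed the gene to within 1.5-fold.

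No first exon region passed among the genes of 5-FU and nucleotide metabolism (0 of 59 regions in 40 genes, median 0.01). The values ran from DUT ER1a, of the enzyme that removes dUTP, with 291 and 126 (-0.35; -0.88 to 0.16), to UCK1 ER1a, a uridine-cytidine kinase, with 70 and 74 (0.77; -0.05 to 1.60). RRM1 (0.01; -0.14 to 0.17) and TK1 ER1b (0.01; -0.13 to 0.15) were measured closely. Of the WNT pathway and intestinal epithelium list 0 of 46 regions passed (median 0.05, from KRT18 at -0.71 to CTNNBIP1 at 0.57). Since 0.727% and 0.242% of all first exon regions were called, a count of 0 in lists of this size is near the background.

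Of 77 regions in 63 genes of cell adhesion and the cytoskeleton, 3 were higher (3.90%) and 1 lower (1.30%), beside 0.727% and 0.242% of all first exon regions, with a median index of 0.06. PHLDB2 and LAMA3 are again the members chosen with earlier results known, and PHLDB2 gives 2 of the 3, so this count is not independent either. The higher ones were both PHLDB2 regions and ER1d of ZYX, the focal adhesion protein zyxin, with 47 and 59 beside 12278 and 6598 (1.22; 0.27 to 2.20), and the lower one was LAMA3. The junction reads of ZYX exon 1 lay on the other side, 31 and 11 (-0.53; -2.51 to 1.12).

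The coverage minimum cut a continuous range. ER1b of MERTK, just inside at 2003 bases, had 30 and 20 read equivalents and an index of -0.02, and ER1a of MKNK1, just outside at 1999, had 29 and 21 and 0.58. A region at this limit has counting intervals several-fold wide, and a relative change near 2-fold was not detectable at this depth.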

How the data were processed

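Per the labels, polyadenylated RNA was reverse transcribed with random hexamers without keeping strand, amplified in 10 PCR cycles and sequenced as paired 42-mers or 36-mers. An aligner was not given in the sources used here. Positions are hg18 and features Ensembl release 53, per the file headers and submitters' processing notes. The authors deposited read counts for genes and junctions and, for exon regions, coverage as a summed signal in bases and a normalized coverage.

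Here, coverage was divided by the mean bases per read (40.4 in MIP101, 39.8 in MIP/5FU) and rounded to read equivalents. Intervals combine Clopper-Pearson limits of both log ratios by the MOVER method with a 0.1% error rate for calls, and cover counting error only: mates and PCR copies without molecular identifiers are not independent, and no replicate exists. Junction sets needed 20 reads. The index was tried on simulated counts with independent counting error only. That trial cannot show errors from mates, PCR copies or differences between libraries. Regions named are the 12 highest and 12 lowest called (1 per gene, at least 500 gene reads in each library), up to 10 genes called by region and junctions, up to 6 pairs inside exon 1, called list members, UMPS, TYMS, the 3 most covered and those at the threshold. Members and lists were chosen with earlier results of these data known. Promoters were tied to exon 1 through shared transcript identifiers with spans equal within 100 bases. Calculations used Python 3.11.15 with scipy 1.17.1, numpy 2.4.6 and pandas 2.3.3, and plots matplotlib 3.10.9. Alternatives changed the reference, centring, scale, filters, lengths and size threshold. Some items are not reported here.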

Additional observations from a re-analysis of the deposited data

How the results depend on the processing

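Higher calls outnumbered lower ones under all 13 alternatives tried. Against gene reads 70 regions were higher and 18 lower, and against the median of the remaining regions 79 and 15. A coverage minimum of 5000 left 49 higher (20 lower), and genes overlapping no other gene gave 49 and 16 of 7532 tested. At 1.5-fold, 207 were higher, 53 lower and 39 pairs inside exon 1 differed. At 4-fold, 10 were higher and 6 lower, so the higher share of calls went from 75% to 62.5%. Exon 1 junction sets against gene reads gave 7 higher and 11 lower, the opposite order to 12 and 7; the cause was not tested. Leaving out regions that overlap an exon of another gene, added after seeing the data, gave 79 and 28. Under the 3 alternatives run for it the median index lay between 0.043 and 0.044, beside 0.048. No called named region changed sign, and of the uncalled ones UMPS did, from -0.0037 to 0.0019 on the authors' normalized coverage. HHLA3 lost its call against gene reads (-1.61) and on the authors' normalized coverage (-1.67), and PRKAG2 against the median (-1.55). No paired analysis was possible because each line has 1 library, and no replicate could be left out. Depth limits regions under 50 read equivalents most.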
